A study of Mus musculus with 12 samples.

Results

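The Eph receptors described here were 10 genes, Epha3, Epha4, Epha5, Epha6, Epha7, Epha8, Ephb1, Ephb2, Ephb3 and Ephb6, found by symbol among the 46603 Ensembl genes counted in mouse neocortex. RNA sequencing had been performed on 12 libraries of C57Bl/6J background, 3 per group: E12.5 Chd8+/+, E12.5 Chd8+/-, P5 Chd8+/+ and P5 Chd8+/-. Both hemispheres of the embryonic neocortex (E12.5) and 1 hemisphere of the postnatal neocortex (P5) were taken, and each stage was counted in a table of its own, so that stage, dissection and counting cannot be told apart. The Chd8 null allele lacked exon 3, removed in the whole animal by a β-actinCre transgene that was then bred out, and the mice came from crosses of heterozygotes with C57BL/6J. The labels do not say whether the libraries were separate animals or pools, so that the p-values measure only the spread between these libraries. All 10 receptors passed edgeR's filter on low counts in every comparison. DESeq2 gave Epha6 no adjusted p at E12.5 or for the interaction, so that it could not be called there.

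Eph receptors are the largest family of receptor tyrosine kinases and bind ephrins, which are themselves attached to the membrane of a neighbouring cell. EphA receptors mainly bind the lipid-anchored ephrin-A ligands and EphB receptors the transmembrane ephrin-B ligands, although EphA4 binds both classes. Signals run in either direction at the contact between cells, and in the developing forebrain the family is known for axon guidance, topographic mapping of thalamic and cortical projections, cell sorting and synapse formation.

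The libraries held between 38774591 and 54695236 counts on genes. Chd8 checked the genotype labels: it had 233 to 238 normalized CPM in the E12.5 Chd8+/+ and 164 to 169 in the E12.5 Chd8+/- libraries, and 143 to 148 against 94.1 to 97.7 at P5 (adjusted p = 0.00562 and 7.21e-05, edgeR's quasi-likelihood test). The markers of cortical excitatory neurons and of cortical progenitors were detected at either stage, with none of their 6 and 7 genes at 0. Summed markers of tissue next to the neocortex were present as well. E12.5 Chd8+/- replicate 2 stood apart: its 4 thalamus markers summed to 350 CPM, against 172 to 194 in the other 5 E12.5 libraries, and its excitatory neuron markers to 343, against 420 to 541. In bulk tissue, fewer cells of a type and less RNA per cell cannot be told apart.

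The promoters of 4 receptors are shown, picked by their stage or genotype comparison below. Epha8 and Epha6 rose most between the stages, and Epha4 and Epha5 were called lower in Chd8+/- at P5 by DESeq2 and by edgeR without a filter on low counts, but not by the edgeR test used throughout. Each sequence runs 5′ to 3′ on the gene's strand, from 250 bases before to 50 bases after the start in RefSeq (GRCm38.p6), and capitals mark GGGCGG or its reverse complement CCGCCC. Epha8 lies at chr4:136956767-136957066, Epha6 at chr16:60605482-60605781, Epha4 at chr1:77515039-77515338 and Epha5 at chr5:84417333-84417632, all on the minus strand.
Epha8: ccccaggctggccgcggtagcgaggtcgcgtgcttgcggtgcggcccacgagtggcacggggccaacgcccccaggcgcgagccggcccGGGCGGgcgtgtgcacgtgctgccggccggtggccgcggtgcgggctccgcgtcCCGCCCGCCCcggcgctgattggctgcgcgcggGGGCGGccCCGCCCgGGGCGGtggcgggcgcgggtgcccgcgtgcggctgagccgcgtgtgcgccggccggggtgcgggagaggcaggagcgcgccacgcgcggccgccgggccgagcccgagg
Epha6: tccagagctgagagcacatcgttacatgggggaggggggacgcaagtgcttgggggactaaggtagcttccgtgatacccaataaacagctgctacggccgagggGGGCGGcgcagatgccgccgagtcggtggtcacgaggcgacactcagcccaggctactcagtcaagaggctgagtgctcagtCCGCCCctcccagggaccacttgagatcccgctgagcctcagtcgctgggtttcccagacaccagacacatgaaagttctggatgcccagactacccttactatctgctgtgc
Epha4: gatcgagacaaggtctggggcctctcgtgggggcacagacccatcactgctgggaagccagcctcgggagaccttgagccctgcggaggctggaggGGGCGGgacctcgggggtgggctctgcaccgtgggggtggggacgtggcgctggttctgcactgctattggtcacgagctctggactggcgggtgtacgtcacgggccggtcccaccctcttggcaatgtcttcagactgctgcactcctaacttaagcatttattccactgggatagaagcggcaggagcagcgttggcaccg
Epha5: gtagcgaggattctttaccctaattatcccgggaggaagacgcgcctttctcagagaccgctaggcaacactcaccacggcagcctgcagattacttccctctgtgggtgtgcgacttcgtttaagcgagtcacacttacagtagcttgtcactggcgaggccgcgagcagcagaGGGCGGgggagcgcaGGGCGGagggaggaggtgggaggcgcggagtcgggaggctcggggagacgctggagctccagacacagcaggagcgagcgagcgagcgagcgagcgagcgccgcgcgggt

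The Epha8 promoter held 56 CpG dinucleotides in 300 bases, more than 99.8% of the 32851 mouse promoters in the same table, whose median was 7. It held 6 copies of the GGGCGG or CCGCCC motif, which overlap in part. The Epha6 promoter held 15 CpG dinucleotides and 2 copies, the Epha4 promoter 17 and 1, and the Epha5 promoter 30 and 2. At least 1 copy was present in 35.7% of all promoters. Over all 10 receptors the CpG count ran from 14 (Ephb1) to 56, and no copy was found for Epha3, Ephb1 or Ephb2. The letters TATAAA, on either strand, were in none of the 10, against 13.6% of all promoters. These matches describe the letters of the window and are not sites of binding.

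The level of each receptor is given per length, in RPKM, a read count scaled to exon length and library size, on a scale common to the 12 libraries. In E12.5 Chd8+/+ neocortex, Epha4 and Epha3 were highest, at 37.2 ± 1.86 and 35.3 ± 2.36 RPKM (SD, n = 3), and their ranges overlapped. Ephb2 followed at 21.7 ± 1.48, then Ephb1 at 10.7 ± 0.761, Epha5 at 6.47 ± 0.427, Epha7 at 5.75 ± 0.287, Ephb6 at 5.41 ± 0.0371 and Ephb3 at 3.78 ± 0.283 RPKM. From Ephb2 on, the ranges of neighbours in this order did not overlap, but those of Epha5, Epha7 and Ephb6 nearly met: the lowest Epha5 library was at 6.12 and the highest Epha7 library at 6.08, and the lowest Epha7 library at 5.53 and the highest Ephb6 library at 5.45 RPKM. Epha8 and Epha6 were lowest, at 0.489 ± 0.0385 and 0.125 ± 0.0239 RPKM. Epha6 rested on only 19 to 35 counts in the 6 E12.5 libraries, whereas Epha4 had at least 7686 counts in every one of the 12.

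In P5 Chd8+/+ neocortex the order was different. Ephb6 was highest at 35.3 ± 1.29 RPKM and Epha4 next at 27.5 ± 0.598 (SD, n = 3). Epha5 and Epha8 overlapped, at 12.6 ± 0.526 and 11.8 ± 0.579, and so did Ephb1 and Epha7, at 9.79 ± 0.186 and 9.49 ± 0.385, with Ephb2 between these pairs at 10.8 ± 0.161. Epha3, among the highest at E12.5, was at 5.57 ± 0.44 RPKM. Ephb3 was at 3.54 ± 0.088 and Epha6, still the lowest, at 2.22 ± 0.127.

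**Figure D1:**
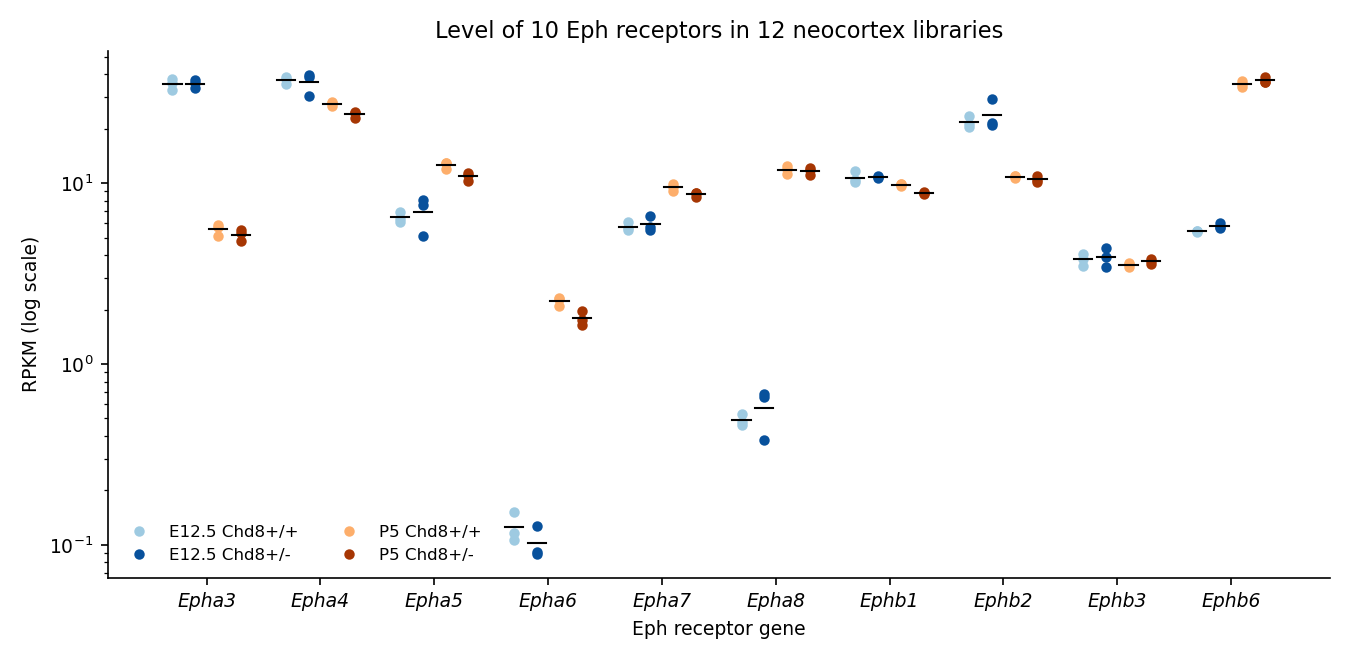
Level of each Eph receptor in RPKM on a log scale, with 1 point per library, coloured by stage and genotype, and a line at the mean of the 3 libraries of a group. Epha6 and Epha8 sit below 1 RPKM at E12.5 and above it at P5, whereas Epha3 goes from 35.3 to 5.57 RPKM in Chd8+/+.

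The first comparison asked how the receptors differed between the stages in Chd8+/+ neocortex. 9 of the 10 receptors were called at an adjusted p under 0.05 in edgeR's quasi-likelihood test, 5 higher and 4 lower at P5, where 83.1% of all genes tested were called, 41.4% higher and 41.7% lower. A log2 fold change beyond 1 with the same threshold was found for 5 receptors, where 46.5% of all genes tested passed both.

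Epha8, which is best known from the developing midbrain and its projections, had 0.479, 0.532 and 0.457 RPKM in the E12.5 Chd8+/+ libraries and 11.9, 11.2 and 12.4 at P5. It was 24.2-fold higher at P5 (log2 fold change 4.6, SE 0.14, adjusted p = 2.71e-13, edgeR). Epha6, known from the mapping of retinal projections, had 0.117, 0.152 and 0.107 RPKM at E12.5 and 2.31, 2.29 and 2.08 at P5. This was a 17.8-fold rise (log2 fold change 4.16, SE 0.143, adjusted p = 1.02e-12, edgeR). Ephb6, a receptor without kinase activity of its own, went from 5.41, 5.45 and 5.38 to 34.0, 35.2 and 36.6 RPKM, a 6.51-fold rise (log2 fold change 2.70, SE 0.0443, adjusted p = 7.13e-16, edgeR). For these 3 receptors every P5 library was several times above every E12.5 library.

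Epha5 and Epha7 rose by less. Epha5, a receptor for ephrin-A ligands in topographic projections, had 6.35, 6.95 and 6.12 RPKM at E12.5 and 12.9, 12.9 and 12 at P5 (log2 fold change 0.96, SE 0.121, adjusted p = 3.37e-06, edgeR). Epha7, which with ephrin-A5 is known to affect the number of cortical progenitors, had 6.08, 5.65 and 5.53 against 9.09, 9.86 and 9.52 RPKM (0.72, SE 0.0615, adjusted p = 4.34e-08). The stages did not overlap for either gene.

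Epha3, a high-affinity receptor for ephrin-A5, fell furthest. It had 32.7, 37.4 and 35.9 RPKM at E12.5 and 5.07, 5.73 and 5.90 at P5, which was 6.35-fold lower (log2 fold change -2.67, SE 0.0709, adjusted p = 6.34e-14, edgeR). Ephb2, which at synapses associates with NMDA receptors, went from 21.3, 20.5 and 23.4 to 10.9, 10.7 and 11 RPKM (log2 fold change -1.0, SE 0.1, adjusted p = 2.64e-07). Epha4 fell by 0.44 on the log2 scale (adjusted p = 1.9e-04), from 35.1, 38.7 and 37.8 to 26.8, 27.9 and 27.7 RPKM, so that a gene near the top of the order at E12.5 stayed there.

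Ephb1, known for sorting of axons at the optic chiasm, had 10.1, 10.4 and 11.6 RPKM at E12.5 and 9.92, 9.86 and 9.57 at P5. The call for Ephb1 (log2 fold change -0.13, adjusted p = 0.0220, edgeR) was lost with DESeq2 (adjusted p = 0.212), with its size factors in edgeR (0.156), without E12.5 Chd8+/+ replicate 3 (0.177) and without P5 Chd8+/+ replicate 3 (0.0679). Ephb3, which acts with Ephb2 in the guidance of commissural axons, was not called: it had 3.82, 3.48 and 4.04 RPKM at E12.5 and 3.61, 3.57 and 3.44 at P5 (log2 fold change -0.10, 95% interval -0.27 to 0.07, adjusted p = 0.271). With offsets that remove a trend of the counts with exon length, Ephb3 was called lower at P5 (-0.16, adjusted p = 0.0440, edgeR), while in the other alternatives it was not called.

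The stage difference over all genes went with genomic span, that is the distance between a gene's ends. Genes over 100 kb had a median log2 fold change of 0.58 and shorter genes one of -0.07. After offsets that removed this trend from each library, Epha5 changed by 0.04 (adjusted p = 0.791, edgeR) and Ephb1 by -1.16. Epha7 changed by 0.23, Epha4 by -0.90 and Ephb2 by -1.58, while Epha6 still rose by 2.60, Epha8 by 4.57 and Ephb6 by 2.68, and Epha3 changed by -3.52. No receptor changed sign between the stages in any of the 22 alternatives tried.

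The summed level of the 10 receptors was close in the 2 stages, although its parts were not. It was 122, 129 and 130 RPKM in the E12.5 Chd8+/+ libraries and 126, 129 and 130 in the P5 Chd8+/+ libraries. The 6 EphA receptors made up 67.2% of this sum at E12.5 (range 65.9 to 69.1%) and 53.8% at P5 (53.5 to 54.1%). Epha3 alone went from 27.8 to 4.33% of the sum and Ephb6 from 4.26 to 27.4%. A sum of RPKM weighs the genes by their level and says nothing of protein.

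**Figure D2:**
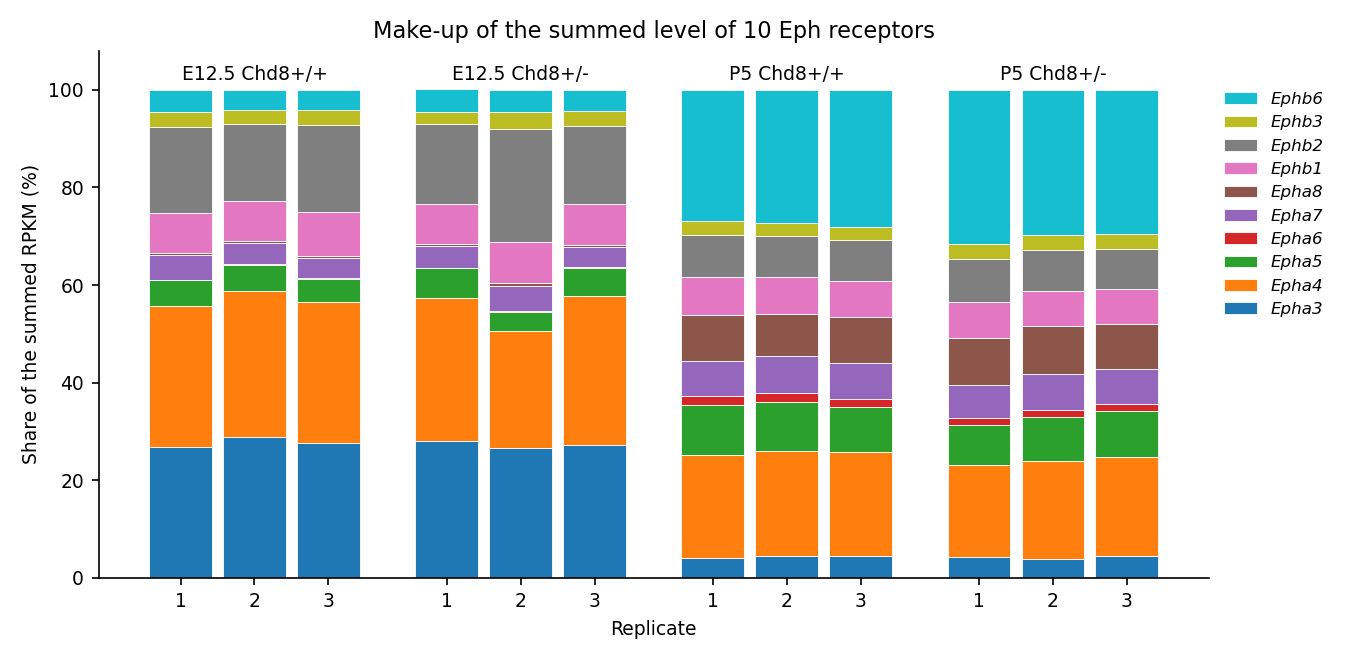
Share of each receptor in the summed RPKM of the 10, in percent, with 1 bar per library, grouped by stage and genotype. Ephb6 takes 27.4% of the sum in P5 Chd8+/+ neocortex and Epha3 27.8% in E12.5 Chd8+/+ neocortex.

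The same 9 receptors were called between the stages in the Chd8+/- libraries, in the same directions, where 82.9% of all genes tested were called. Epha8 was 20.5-fold and Epha6 17.3-fold higher at P5 in Chd8+/-, Ephb6 6.40-fold higher and Epha3 6.80-fold lower. Whether the changes differed between the genotypes was tested by the interaction of genotype and stage, with all 12 libraries in 1 model. 0 of the 10 receptors were called, as were 0.0% of the 19676 genes tested by edgeR, where 1972 genes had an unadjusted p under 0.05. DESeq2 called 8 genes for the interaction, or 0.0938% of those it kept, and none of the receptors. 9 of the 10 estimates were below 0, against 54.2% of all genes tested and 1798 of the 2410 genes over 100 kb, a length that 7 of the receptors exceed. The count was 7 with genomic span offsets and 7 without E12.5 Chd8+/+ replicate 1. An unadjusted p under 0.05, found for 10% of all genes tested, was reached by 1 receptor. This was Ephb1, whose genotype difference was 0.17 lower on the log2 scale at P5 than at E12.5 (95% interval of the interaction -0.31 to -0.02, adjusted p = 0.457). The interaction of Epha5 was estimated at -0.30 with an interval of -0.67 to 0.06, that of Epha7 at -0.18 (-0.37 to 0.00356) and that of Epha4 at -0.15 (-0.40 to 0.10). Without E12.5 Chd8+/- replicate 2 the estimate of Epha5 was -0.48 (unadjusted p = 3.92e-05, adjusted p = 0.196) and that of Epha4 -0.26 (adjusted p = 0.432). Other left-out libraries made the estimates smaller. With single libraries left out, they ran from -0.475 to -0.162 for Epha5 and from -0.26 to -0.0582 for Epha4. Those of Epha7 ran from -0.214 to -0.0964 and those of Ephb1 from -0.216 to -0.0955.

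**Figure D3:**
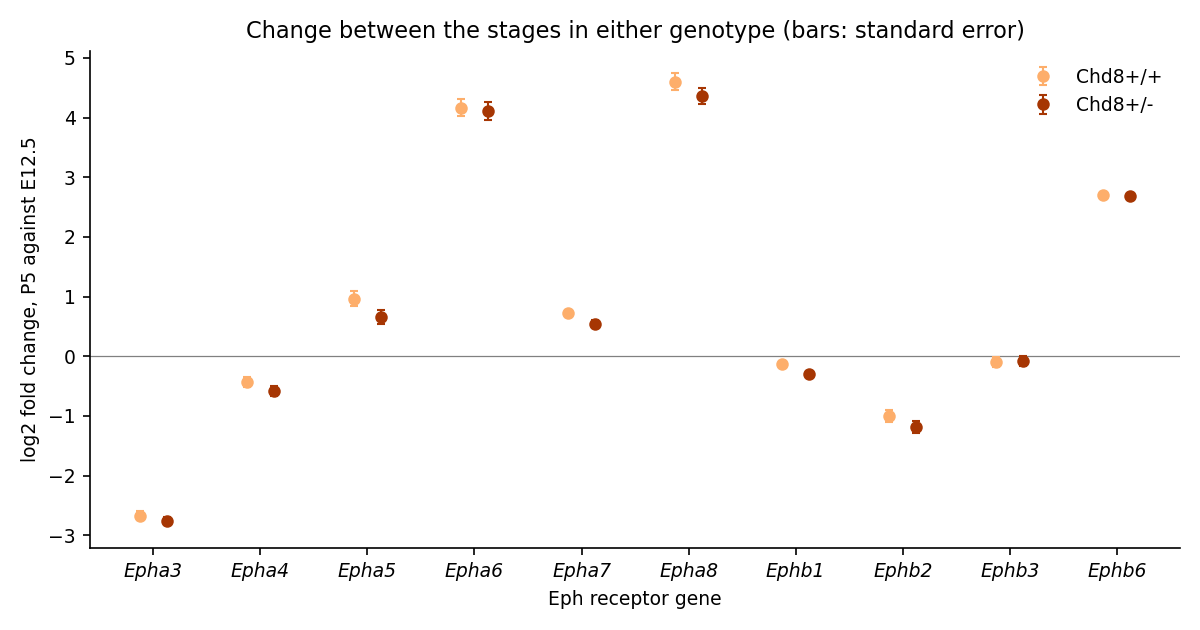
Log2 fold change of each receptor at P5 against E12.5 in Chd8+/+ and in Chd8+/- neocortex, with the SE from edgeR. The points of the 2 genotypes lie close together, from -2.67 and -2.76 for Epha3 to 4.6 and 4.36 for Epha8.

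The genotype comparison at E12.5 asked whether Chd8 heterozygosity altered the receptors before most cortical neurons are born. 0 of the 10 receptors were called by edgeR, where 0.00553% of all genes tested were called (1 gene, Chd8). No receptor had an unadjusted p under 0.05, against 5.15% of all genes tested, and DESeq2 called none, against 0.0374%. Of the 10 estimates, 7 were above 0 and 3 below it, where 49.8% of all genes tested were below it, with a median of 0.05 on the log2 scale.

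Values for the genotype comparisons are given in CPM, normalized within a stage. Ephb6 was the only receptor whose genotypes did not overlap at E12.5, with 20.6, 21.0 and 20.5 CPM in Chd8+/+ and 22.9, 21.7 and 21.7 in Chd8+/- libraries, where 11.3% of all genes tested did not overlap. Its log2 fold change was 0.09 (95% interval -0.03 to 0.22, adjusted p = 0.944, edgeR). The widest intervals belonged to the lowly expressed genes, -0.84 to 0.28 for Epha6 and -0.27 to 0.71 for Epha8. The narrowest was that of Ephb6, followed by those of Ephb1 (-0.12 to 0.14) and Epha3 (-0.14 to 0.14).

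E12.5 Chd8+/- replicate 2 was the highest or the lowest of the 6 libraries for 6 of the 10 receptors. Epha4 had 246 CPM in this library, against 286 to 325 in the other 5. Epha5 had 86.1, against 104 to 136. Ephb2 was at 374 CPM there, against 264 to 298. The summed thalamus markers of this library were high and its excitatory neuron markers low, as given above, and its meninges markers summed to 597 CPM against 251 to 388. Not all thalamus markers varied: between the E12.5 genotypes Tcf7l2 was estimated at 1.36 (SE 0.616) and Gbx2 at 0.55 (SE 0.386), but Lhx9 at -0.02 (SE 0.0928) and Slc17a6 at 0.03 (SE 0.0755). The GABAergic interneuron markers summed to 531 CPM in this library, against 625 to 652 in the other 5. Of these 7 markers, 2, Gad1 (-0.19) and Lhx6 (-0.35), were lower in Chd8+/- without overlap and with an unadjusted p under 0.05. Of the 18081 genes tested, 514 were lower with such a p and 1066 were lower without overlap. The 6 endothelial markers summed to 230 to 234 CPM in Chd8+/+ and 204 to 216 in Chd8+/- libraries at this stage. All 6 were estimated lower, and 2, Kdr (-0.21) and Cdh5 (-0.16), met both conditions. The part of these differences in the receptor levels was not tested. Without replicate 2, Epha4 changed by 0.08, Ephb2 by -0.03 and Epha5 by 0.27 (unadjusted p = 8.13e-04, adjusted p = 0.483, edgeR), and again no receptor was called.

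At P5 the 6 EphA receptors among the 10 were estimated lower in Chd8+/-, by 0.01 to 0.30 on the log2 scale, although the sign of Epha8, the smallest of these, changed in 3 of 15 alternatives. Of the EphA genes outside the 10, Epha10 was estimated at 0.03, Epha1 at 0.04 and Epha2 at -0.32, each with overlapping genotypes. edgeR called 0 of the 10 receptors at an adjusted p under 0.05, where it called 0.00536% of all genes tested (1 gene, Chd8). However, 5 receptors, Epha4, Epha5, Epha6, Epha7 and Ephb1, were lower with an unadjusted p under 0.05, where 9.77% of all genes tested were. The genotypes did not overlap for any of these 5, and 12.2% of all genes tested were lower without overlap. 8 of the 10 receptors, and all 6 EphA receptors, were estimated lower, against 49.6% of all genes tested. Those estimated lower were 7 with genomic span offsets and 6 with exon length offsets, described below. The median over the 10 was -0.10 on the log2 scale, against 0.00169 over all genes tested, and was -0.03 with the former offsets and -0.06 with the latter.

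Of 12362 genes kept by DESeq2, 653 (5.28%) were called by it, and these included Epha4 and Epha5, 2 of the receptors. Epha4, the receptor that binds both ephrin classes and acts in corticospinal and thalamocortical guidance, had 212, 220 and 220 CPM in Chd8+/+ and 183, 195 and 198 in Chd8+/- libraries. This put Chd8+/- 11.6% below Chd8+/+, or at -0.18 on the log2 scale with an SE of 0.041. The adjusted p was 0.11 in edgeR and 0.00527 in DESeq2. Epha5 had 212, 212 and 198 CPM against 170, 185 and 189, which was 12.6% lower, or -0.19 on the log2 scale with an SE of 0.0484. Here edgeR gave an adjusted p of 0.116 and DESeq2 one of 0.00656. For Epha4 and Epha5 the highest Chd8+/- library was below the lowest Chd8+/+ library.

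The DESeq2 calls depended on single libraries. Neither receptor was called without Chd8+/+ replicate 1 or without Chd8+/+ replicate 2, and Epha5 was not called without Chd8+/- replicate 1. Over all genes, DESeq2 called 48 and 122 in the fits without Chd8+/+ replicate 1 and 2. The edgeR estimates without these libraries were -0.20 and -0.17 for Epha4, and -0.18 in either case for Epha5. Chd8+/- replicate 1 was the lowest of the 6 libraries for 4 receptors and the highest for 2. With the replicate number as a block, DESeq2 called 81 genes and neither Epha4 nor Epha5, although the numbers were not taken as pairs.

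Epha6 had the largest estimate, with 12, 11.8 and 10.8 CPM in Chd8+/+ and 8.65, 9.23 and 10.2 in Chd8+/- libraries (18.7% lower, -0.30 on the log2 scale, SE 0.0832), with an adjusted p of 0.129 in edgeR and 0.0645 in DESeq2. It also had the fewest counts of the 10 receptors, 363 to 655 per P5 library. Ephb1 had 63.1, 62.6 and 61.1 CPM against 56.9, 55.5 and 57.0 (-0.14, adjusted p = 0.117 by edgeR and 0.0775 by DESeq2). Epha7 had 88.1, 95.3 and 92.6 CPM against 81.9, 86.6 and 86.0 (-0.12, adjusted p = 0.174 by edgeR and 0.161 by DESeq2). For Ephb1 the gap between the groups was wide against a spread of 1.06 and 0.841 CPM (SD, n = 3), whereas the Epha7 groups nearly met.

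The remaining 5 receptors did not have an unadjusted p under 0.05. Ephb3 had 22.2, 22.0 and 21.3 CPM in Chd8+/+ and 22.5, 23.6 and 23.2 in Chd8+/-, the one receptor that was higher without overlap, so that 6 of the 10 did not overlap in all, against 23.2% of all genes tested (log2 fold change 0.08, 95% interval -0.03 to 0.20, adjusted p = 0.438, edgeR). Ephb6 was estimated at 0.09 (interval -0.00887 to 0.18), Ephb2 at -0.03 (-0.12 to 0.05), Epha3 at -0.08 (-0.24 to 0.08) and Epha8 at -0.01 (-0.12 to 0.10). With exon length offsets Ephb3, estimated at 0.11 (adjusted p = 0.294, edgeR), did have an unadjusted p under 0.05, while Epha7, at -0.06 (adjusted p = 0.4, edgeR), no longer had one. The estimate of Ephb2 was 0.03 with either kind of length offset, and that of Epha8 ran from -0.045 to 0.0365 over 15 alternatives. That of Epha3 was -0.00354 with genomic span offsets and ran from -0.146 to -0.0225 with single libraries left out.

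**Figure D4:**
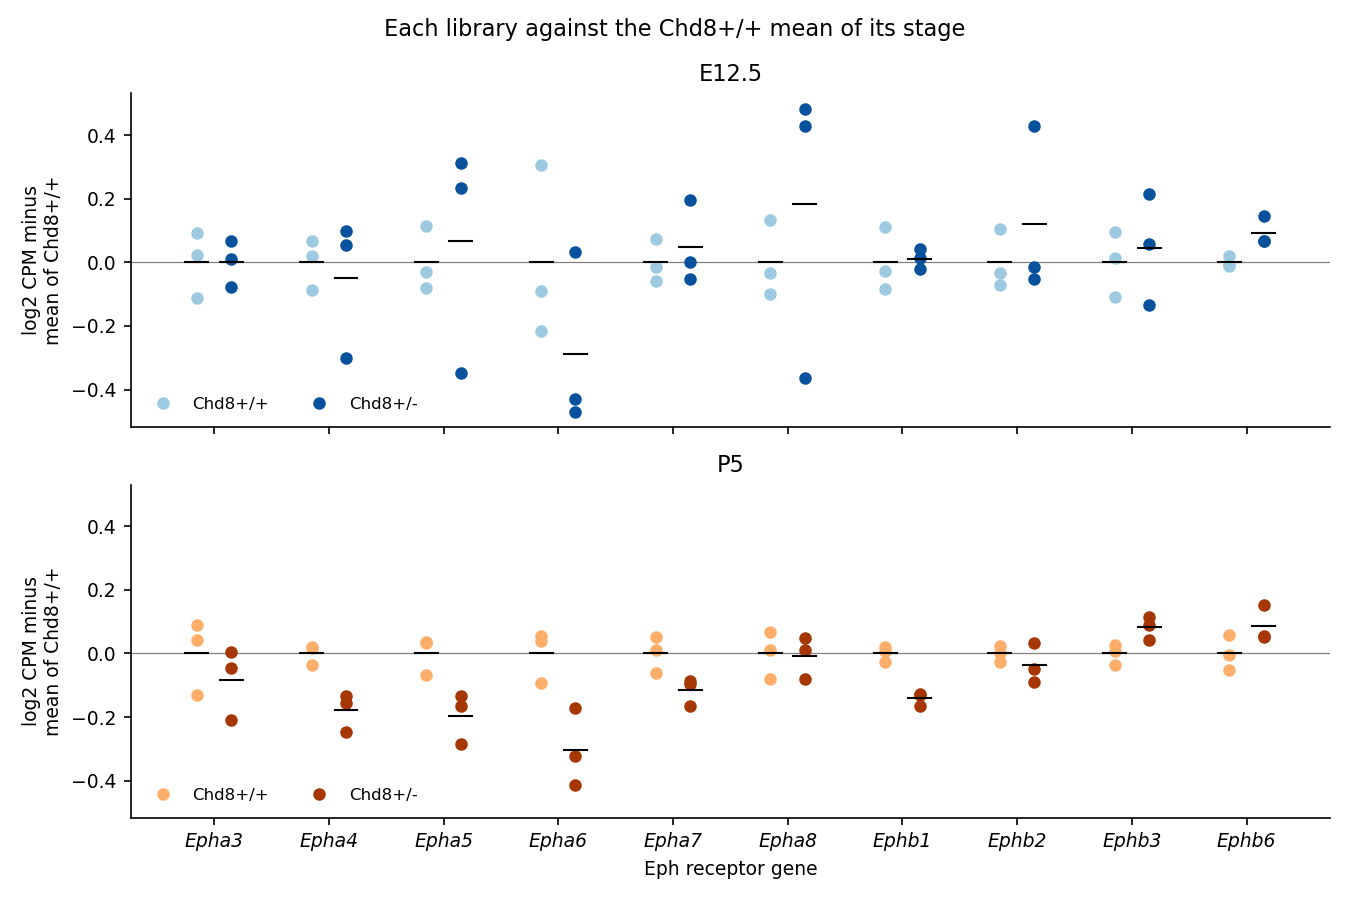
Log2 CPM of each library minus the mean log2 CPM of the 3 Chd8+/+ libraries of its stage, for each receptor at E12.5 (upper) and P5 (lower), with a line at the mean of each group. At P5 the Chd8+/- points of Epha4, Epha5, Epha6, Epha7 and Ephb1 lie below all Chd8+/+ points, whereas at E12.5 the groups overlap for every receptor but Ephb6.

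In summed RPKM, the 6 EphA receptors were at 68.1, 70.0 and 69.6 in P5 Chd8+/+ and at 60.1, 63.1 and 63.5 in P5 Chd8+/- libraries. The 4 EphB receptors were at 58.4, 59.3 and 60.6 against 61.9, 59.1 and 58.8. The EphA sums did not overlap between the genotypes, and the EphB sums did. The order of the receptors was nearly kept in P5 Chd8+/-, where Epha8 at 11.6 overlapped Epha5 at 10.9, and Epha5 overlapped Ephb2 at 10.5 RPKM.

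At P5 the genotype difference went with genomic span. In GRCm38, Epha6 (ENSMUSG00000055540) lies at chr16:59653483-60605531, Epha5 (ENSMUSG00000029245) at chr5:84054761-84417382, Epha4 (ENSMUSG00000026235) at chr1:77367185-77515088 and Epha8 at chr4:136929419-136956816. Epha6 spans 952.0 kb, Ephb1 432.6 kb, Epha5 362.6 kb, Epha3 320.6 kb, Ephb2 188.4 kb, Epha7 154.4 kb and Epha4 147.9 kb. Epha8 spans 27.4 kb, Ephb3 18.6 kb and Ephb6 15 kb. All 7 receptors over 100 kb were estimated lower in Chd8+/- at P5, where 72.1% of all genes tested over 100 kb were. The 3 short receptors lay between -0.01 and 0.09. Across the 10 receptors, which share their libraries, Pearson's r between log2 span and log2 fold change was -0.896 and Spearman's rank correlation -0.818 at P5, and -0.615 and -0.515 at E12.5.

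At P5 this went along with a trend over all genes. At E12.5 it did not: genes over 100 kb had a median log2 fold change of 0.0143, and 1307 of the 2305 were estimated higher. The median log2 fold change at P5 was 0.04 to 0.06 in the 4 deciles of shortest span and -0.07 in the longest, whereas at E12.5 it stayed between -0.02 and 0.02 in all deciles. Lower with an unadjusted p under 0.05 at P5 were 26.0% of the genes over 100 kb and 7.38% of the others, beside 5 of the 7 long receptors and 0 of the 3 short ones. With offsets that removed the span trend from each library, the P5 estimates were -0.12 for Epha4 (unadjusted p = 0.00646, adjusted p = 0.171, edgeR), -0.11 for Epha5 (0.0137 and 0.206), -0.19 for Epha6 (0.0228 and 0.238), -0.06 for Epha7 (0.126 and 0.439) and -0.05 for Ephb1 (0.182 and 0.510). DESeq2 called no receptor with these offsets and Epha4 alone with offsets for exon length.

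**Figure D5:**
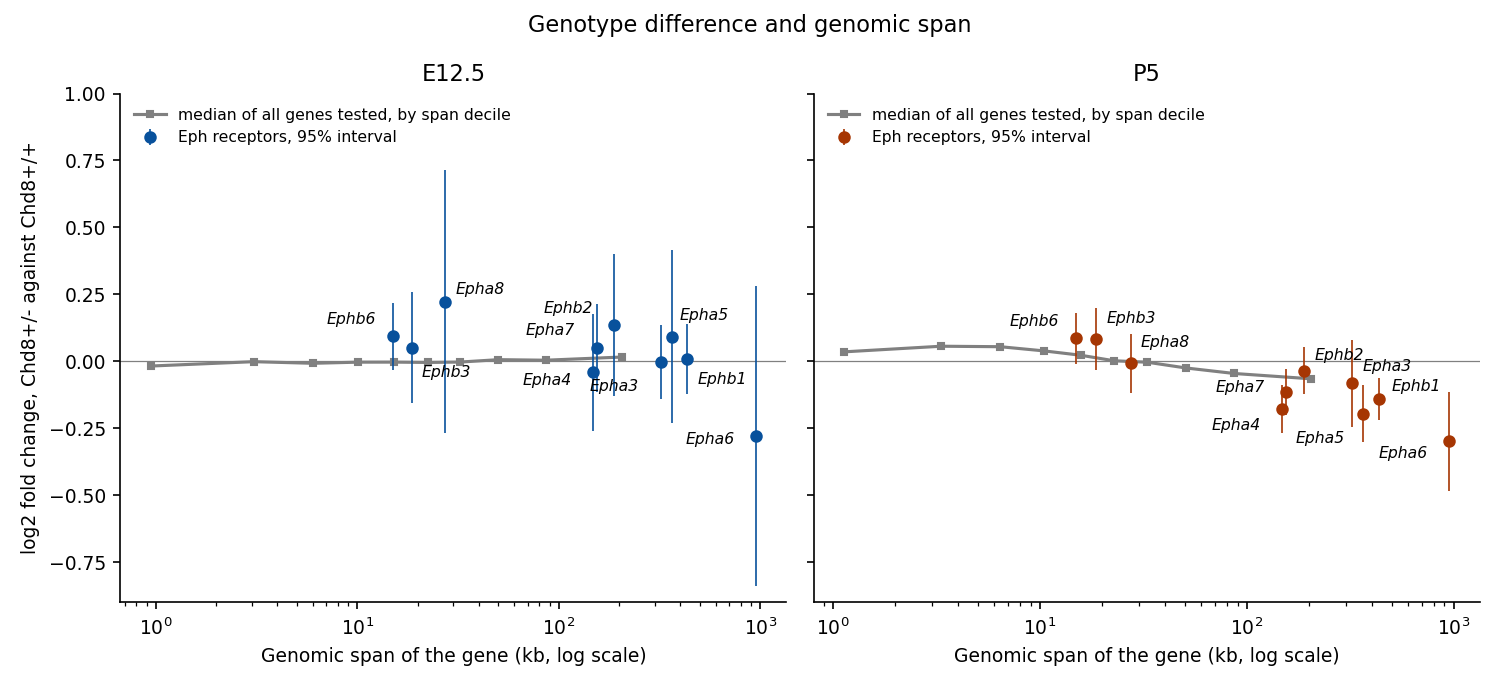
Log2 fold change of Chd8+/- against Chd8+/+ for each receptor at E12.5 (left) and P5 (right) against the genomic span of the gene in kb on a log scale, with 95% intervals from edgeR, and in grey the median of all genes tested in each decile of span. At P5 the 7 receptors over 100 kb lie below 0 and the grey line goes from 0.04 to -0.07, whereas at E12.5 it stays near 0.

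Marker lists of other cells and of tissue next to the neocortex also differed between the genotypes at P5, where 9.77% of all genes tested were lower with an unadjusted p under 0.05. The 9 striatal markers summed to 343 to 375 CPM in Chd8+/+ and 248 to 309 in Chd8+/- libraries, and 8 of the 9 were lower with an unadjusted p under 0.05. The 7 choroid plexus markers summed to 444 to 576 against 323 to 381 CPM, and all 7 were lower with such a p. The 7 GABAergic interneuron markers summed to 583 to 596 against 488 to 560, and 3 of them were lower with such a p, while Lhx6 (-0.005) and Sst (-0.01) were near 0 on the log2 scale. The 6 endothelial markers summed to 204 to 232 against 183 to 203, and 5 were lower with such a p, Cldn5 (0.02) being the exception. The 4 thalamus markers summed to 78.5 to 104 against 73.6 to 77.2, and 2 were lower with such a p. Of the 5 meninges markers, 4 were estimated higher, with Col1a1 at 0.23 (unadjusted p = 0.0282, edgeR), although its genotypes overlapped. Foxc1, the 1 meninges marker without overlap, was lower (-0.17, unadjusted p = 0.0655, edgeR). The sums of this list overlapped, at 215 to 238 and 206 to 266 CPM. The sums of the 6 excitatory neuron markers overlapped, at 1070 to 1150 and 1080 to 1170 CPM, but Neurod6 was lower without overlap (-0.14, unadjusted p = 0.00988 in edgeR, adjusted p = 0.0484 in DESeq2). Those of the 7 cortical progenitor markers overlapped too, at 190 to 200 and 185 to 195 CPM, while 3 of the 7 had such a p and did not overlap: Pax6 (-0.21) and Eomes (-0.36) were lower and Hes5 (0.23) was higher. None of the 5 astrocyte and 5 oligodendrocyte precursor markers had such a p. No marker of these 10 lists was at 0 in any P5 group. The part of these differences in the receptor levels was not tested.

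The ephrins are the ligands of these receptors. None of the 5 ephrin-A and 3 ephrin-B genes had an unadjusted p under 0.05 between the genotypes at either stage, where 5.15% of all genes tested had one at E12.5 and 17.8% at P5. In P5 Chd8+/-, 6 of the 8 were estimated higher, as were 9412 of the 18666 genes tested, with a median of 0.03 on the log2 scale. Between the stages all 8 were called, 2 higher and 6 lower at P5, where 83.1% of all genes tested were called. Efnb1 went from 76.6 ± 7.10 to 9.36 ± 0.605 RPKM (SD, n = 3), while Efnb3 went from 41.4 ± 0.832 to 97.2 ± 2.41 and Efna3 from 4.11 ± 0.698 to 24.4 ± 0.669. Efnb2 (log2 fold change -0.81), Efna4 (-2.01) and Efna2 (-0.58) were lower at P5. Summed over the ligands of a class, ephrin-A genes were at 45.1 ± 2.68 RPKM at E12.5 and 47.8 ± 1.76 at P5, and ephrin-B genes at 172 ± 8.48 and 137 ± 2.46.

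Of the other 4 Eph receptor genes, none had an unadjusted p under 0.05 between the genotypes at either stage, where 5.15% of all genes tested had one at E12.5 and 17.8% at P5. All 4 were called between the stages, as were 83.1% of all genes tested. Epha10, like Ephb6 without kinase activity, rose from 0.198 ± 0.0324 to 4.17 ± 0.0689 RPKM (SD, n = 3). Ephb4, which is best known from blood vessels, went from 12.8 ± 1.28 to 2.78 ± 0.396 RPKM and Epha2 from 1.42 ± 0.0375 to 0.563 ± 0.0796. Both were called lower at P5.

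Among 28 genes of Eph signal transduction, 15 were called higher and 9 lower at P5 than at E12.5, a share near the 83.1% of all genes tested. Ngef, which encodes ephexin, a guanine nucleotide exchange factor bound by EphA4, was 72.8-fold higher at P5, and Arhgef28, another exchange factor, 8.62-fold higher (adjusted p = 8.25e-17 and 9.05e-16, edgeR). Abl1, a tyrosine kinase, and Rock1, a serine/threonine kinase, were lower, with log2 fold changes of -1.34 and -1.30. Between the genotypes none was called by edgeR. At E12.5 only 1 of the 28 had an unadjusted p under 0.05, against 5.15% of all genes tested. This was Pak1, a kinase activated by Rac, with an estimate of 0.16 (adjusted p = 0.942).

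At P5, 8 of the 28 had an unadjusted p under 0.05, against 17.8% of all genes tested. Lower in Chd8+/- with such a p were 7, against 9.77% of all genes tested and 26.0% of those over 100 kb. These were Kalrn (-0.15) and Tiam1 (-0.11), Rac exchange factors that act with EphB receptors, the kinases Abl1 (-0.10) and Abl2 (-0.13), the Ras inhibitor Rasa1 (-0.13), the Rap inhibitor Sipa1l1 (-0.11) and the scaffold Grip1 (-0.13), all as log2 fold changes. Cdk5, a kinase that phosphorylates ephexin, was the one estimated higher, by 0.11. By edgeR the adjusted p of these genes ran from 0.12 to 0.209, and DESeq2 called Kalrn alone (adjusted p = 0.0365). The median of the 28 was -0.04 on the log2 scale, between that of the 10 receptors and that of all genes tested. The spans of these 28 genes were not examined.

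Reads could not be assigned by strand at P5, since the counting used no strand setting. Only Epha6 and Ephb1 share exon bases with another gene, 2.02% and 2.34% of their exon length. In each case that gene is on the opposite strand (Gm9017 and Gm26846). For these 2 receptors a small part of the counts may have been lost or may belong to the partner.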

How the data were processed

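Poly(A)-selected RNA of neocortex had been sequenced as paired-end dUTP libraries. Per the submitters' processing notes the authors used Trim Galore 0.4.1, TopHat2 2.1.0 and featureCounts 1.5.0 on GRCm38, and deposited raw counts per Ensembl gene and run, 1 table per stage. The P5 table was counted with no strand setting; that of the E12.5 table is not given in the sources used here. The 2 runs of each library were summed (38774591 to 54695236 counts per library). Symbols came from GENCODE, and spans and exon lengths from the deposited count tables.

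Genotypes were compared within each stage with edgeR 4.0.16 (R 4.3.3; TMM, filterByExpr and quasi-likelihood defaults, genotype only), and the stages and the interaction in a model of all 12 libraries. P-values were two-sided, adjusted by Benjamini-Hochberg over all genes tested, and called under 0.05. DESeq2 1.42.0, limma-voom 3.58.1, other scaling and filters, length offsets (loess, span 0.5), a replicate block and leaving out each library were alternatives, checked on simulated data. RPKM used the merged exon length. RefSeq promoters were found for all 10 receptors; Epha7 has 2, and its first was used.

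All members were named; of the ligand, receptor and signalling lists, the genes past the threshold with the smallest p (up to 2 per direction) between stages, and every gene with an unadjusted p under 0.05 between genotypes. The marker genes named were chosen after their values were seen. The members and lists were chosen with earlier results of these data known.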

Additional observations from a re-analysis of the deposited data

How the results depend on the processing

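The calls at E12.5 and for the interaction, none in either case, were the same in every alternative run. At P5, 3 receptors (Epha4, Epha5 and Epha6) were called by edgeR when all genes with at least 1 count were tested, which called 995 genes, and 2 by DESeq2, which called 653, against 0 receptors and 1 gene in the report; the cause was not tested. Leaving out Chd8+/- replicate 2 raised the genes called at P5 to 327 and the receptors called stayed at 0. The 5 receptors with an unadjusted p under 0.05 at P5 became 3 with genomic span offsets, and with exon length offsets Epha7 was replaced by Ephb3. They were 4 with all 12 libraries in 1 model and without P5 Chd8+/+ replicate 2. They were 6 with all genes of at least 1 count, without P5 Chd8+/+ replicate 3 and without P5 Chd8+/- replicate 3. Of the 2 DESeq2 calls at P5, 1 was left with exon length offsets, 0 with genomic span offsets, 0 with the replicate number as a block, and 0 to 2 when single libraries were left out. With the block DESeq2 called 81 genes in all, and its median log2 fold change over the receptors was -0.0988, against -0.0984 without it. Between the stages, 5 of the 9 receptors called changed by more than 1 on the log2 scale, but Ephb2 was at the limit, with -0.96 by DESeq2 and -0.95 without E12.5 Chd8+/+ replicate 3, Epha5 (0.96) reached 1.01 with DESeq2's size factors and without E12.5 Chd8+/+ replicate 2, and Ephb1 passed the limit with genomic span offsets (-1.16).

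Deviations of libraries with the same replicate number had an r of -0.227, -0.102 and -0.0913 at E12.5 and of 0.227, 0.111 and 0.0434 at P5, where all were positive but not all above 0.1, so the numbers were not taken as pairs. With the replicate block edgeR called 0 receptors at E12.5, 0 at P5 and 0 for the interaction, and 9 between the stages. At E12.5 the genes called went from 1 to 13 without a filter on low counts and to 5 by DESeq2, and for the interaction from 0 to 17 and to 8. The DESeq2 settings beyond its plain test, and the counts of unadjusted p, were added after seeing the data. Depth limits Epha6 at E12.5, where 19 to 35 counts gave an interval of -0.84 to 0.28.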
